A study of Mus musculus with 16 samples.

Results

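The Cyp4a genes encode the cytochrome P450 enzymes that place a hydroxyl group on the terminal (omega) carbon of fatty acids. The 6 genes described here are Cyp4a10, Cyp4a12a, Cyp4a12b, Cyp4a14, Cyp4a31 and Cyp4a32. They were taken by symbol, as 6 of the 55416 gene identifiers counted in mouse liver. These members, and the gene lists set beside them, were chosen with earlier results of these data known. All 6 passed the filter on low counts and were among the 14770 genes tested. Cyp4a29 and Cyp4a30b, which are not among them, held 0 and 1 counts over all libraries.

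RNA was sequenced from livers of 16 C57BL/6J mice, in 4 groups of 4. Every mouse, aged 8 weeks, received an adenovirus through the tail vein, either a control virus (Ad-CTRL) or a virus for overexpression of FAT10 (Ad-FAT10), a ubiquitin-like modifier encoded by Ubd. After 4 days the mice were gavaged with CMC, the vehicle, or with pemafibrate (Pema, 1 mpk), an agonist of the nuclear receptor PPARα, 18 h and 5 h before the liver was taken, and all were fasted for 5 h. Each group is named by its virus and then its treatment, CMC or Pema. The comparisons ask how the genes answered the drug with each virus and how the viruses differed with each treatment. The labels give neither the sex of the mice nor the promoter of the vector, and there was no group without a virus.

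In omega-oxidation a fatty acid is hydroxylated at its far end, oxidised to a dicarboxylic acid, and then shortened, in large part in peroxisomes. The route is a minor one in the fed liver and is known to grow when fatty acids arrive in excess. Cyp4a10 and Cyp4a14 are textbook targets of PPARα, the fatty acid sensor that pairs with RXR on DNA, whereas Cyp4a12a and Cyp4a12b are known for higher expression in males and for hydroxylation of arachidonic acid.

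The genes form families of close copies, which bears on every count given here. The stretch of coding sequence around the cysteine that binds the heme iron is shown for all of them, from GENCODE M21 transcripts, 5′ to 3′, with capitals at bases that differ from Cyp4a10.
Cyp4a10: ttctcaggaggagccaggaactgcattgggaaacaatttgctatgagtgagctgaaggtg
Cyp4a31: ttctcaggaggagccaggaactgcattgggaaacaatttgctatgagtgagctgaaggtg
Cyp4a32: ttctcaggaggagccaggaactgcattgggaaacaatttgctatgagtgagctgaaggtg
Cyp4a14: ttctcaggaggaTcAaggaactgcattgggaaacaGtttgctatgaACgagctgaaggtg
Cyp4a12a: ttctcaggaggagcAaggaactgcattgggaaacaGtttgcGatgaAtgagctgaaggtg
Cyp4a12b: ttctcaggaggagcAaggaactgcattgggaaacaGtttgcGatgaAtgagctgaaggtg
Within these 60 bases Cyp4a10, Cyp4a31 and Cyp4a32 were identical, as were Cyp4a12a and Cyp4a12b, so a short read from here names a subfamily and not a gene. Cyp4a14 differed from Cyp4a10 at 5 bases, and the Cyp4a12 genes differed from it at 4.

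Over the whole coding sequence Cyp4a10 was 97.2% identical to Cyp4a32 and 96.6% identical to Cyp4a31, and Cyp4a12a was 98.5% identical to Cyp4a12b, with 23 different bases. Cyp4a14 stood apart, at 75.8% to 76.9% identity with the others. The 60 bases in which Cyp4a10, Cyp4a31 and Cyp4a32 differ most are shown next, as the kind of place where reads can tell them apart, with capitals at differences from Cyp4a10.
Cyp4a10: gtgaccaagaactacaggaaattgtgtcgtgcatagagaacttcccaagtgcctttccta
Cyp4a31: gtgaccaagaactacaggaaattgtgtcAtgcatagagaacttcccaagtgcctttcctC
Cyp4a32: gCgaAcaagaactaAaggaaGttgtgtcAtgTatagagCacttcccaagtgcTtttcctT
Even here Cyp4a31 differed from Cyp4a10 at 2 bases, and Cyp4a32 at 9. The same is shown for the Cyp4a12 pair, with capitals at differences from Cyp4a12a.
Cyp4a12a: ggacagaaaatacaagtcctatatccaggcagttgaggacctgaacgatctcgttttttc
Cyp4a12b: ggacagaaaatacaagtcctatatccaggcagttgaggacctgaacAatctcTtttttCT
These 2 genes differed at 4 bases of this stretch. Of all windows of 100 bases in a transcript, the share found unchanged in another Cyp4a gene was 0% for Cyp4a14, 8.22% for Cyp4a31, 12.7% for Cyp4a10, 20.1% for Cyp4a32, 35.8% for Cyp4a12a and 36.2% for Cyp4a12b. For windows of 50 bases the share was 0.245% for Cyp4a14 and 20.1% to 49.4% for the other 5. The sources used here give neither the read length nor how reads that match several genes were counted, so the counts of those 5 genes are uncertain by an unknown amount.

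All 6 genes lie in 1 cluster on chromosome 4, in the order Cyp4a12a, Cyp4a12b, Cyp4a14, Cyp4a10, Cyp4a31 and Cyp4a32 with Cyp4a30b after Cyp4a12b, in the GENCODE M21 annotation (GRCm38, another build than that of the counts). Cyp4a14 is on the minus strand and the rest are on the plus strand. The single annotated gene that overlaps a member is the pseudogene Gm12837, opposite Cyp4a12b, with 18 counts over all libraries.

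Library totals ran from 18663498 to 28898229 counts, and the lowest count of any member was 96, for Cyp4a31 in Ad-CTRL CMC replicate 1. Ubd lay at 8.64 to 15.2 CPM in Ad-CTRL CMC, 14.2 to 47.8 in Ad-CTRL Pema, 110.5 to 339 in Ad-FAT10 CMC and 391 to 546 in Ad-FAT10 Pema. Ubd was thus higher with Ad-FAT10 at each treatment (log2 4.41 and 4.07, edgeR adjusted p = 4.8e-07 and 8.1e-07), and it also rose with pemafibrate (1.30 in Ad-CTRL and 0.96 in Ad-FAT10, adjusted p = 0.00945 and 0.0414), so the comparisons at CMC and at Pema do not rest on equal levels of it. Levels are CPM, the count scaled to a common library size, here a library total scaled by TMM. The scaling factors were 0.831 to 0.929 in the Ad-CTRL libraries and 1.06 to 1.19 in the Ad-FAT10 libraries. All 10 hepatocyte markers were measured in every group, and of 6 markers of the kidney tubule, another site of Cyp4a expression, 3 or 4 were at 0 in each group, with a summed level of at most 3.29 CPM. In whole liver, fewer cells of a type and less RNA per cell cannot be told apart.

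In Ad-CTRL livers pemafibrate raised all 6 genes. Cyp4a14 rose by far the most, Cyp4a10 and Cyp4a31 rose by similar amounts, and Cyp4a32, Cyp4a12b and Cyp4a12a rose least. All 6 members were called higher, against 16.2% of all genes tested, and for all 6 the lowest Pema library lay above the highest CMC library, against 16.1% of genes. The median log2 change of the 6 was 3.84, and that of all genes tested was -0.01. Hepatocyte markers did not move with them, as 5 of 10 were called lower and 0 higher, against 2134 of all 14770 genes called lower. The dot plot of the levels in each liver shows the steps.

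**Figure D1:**
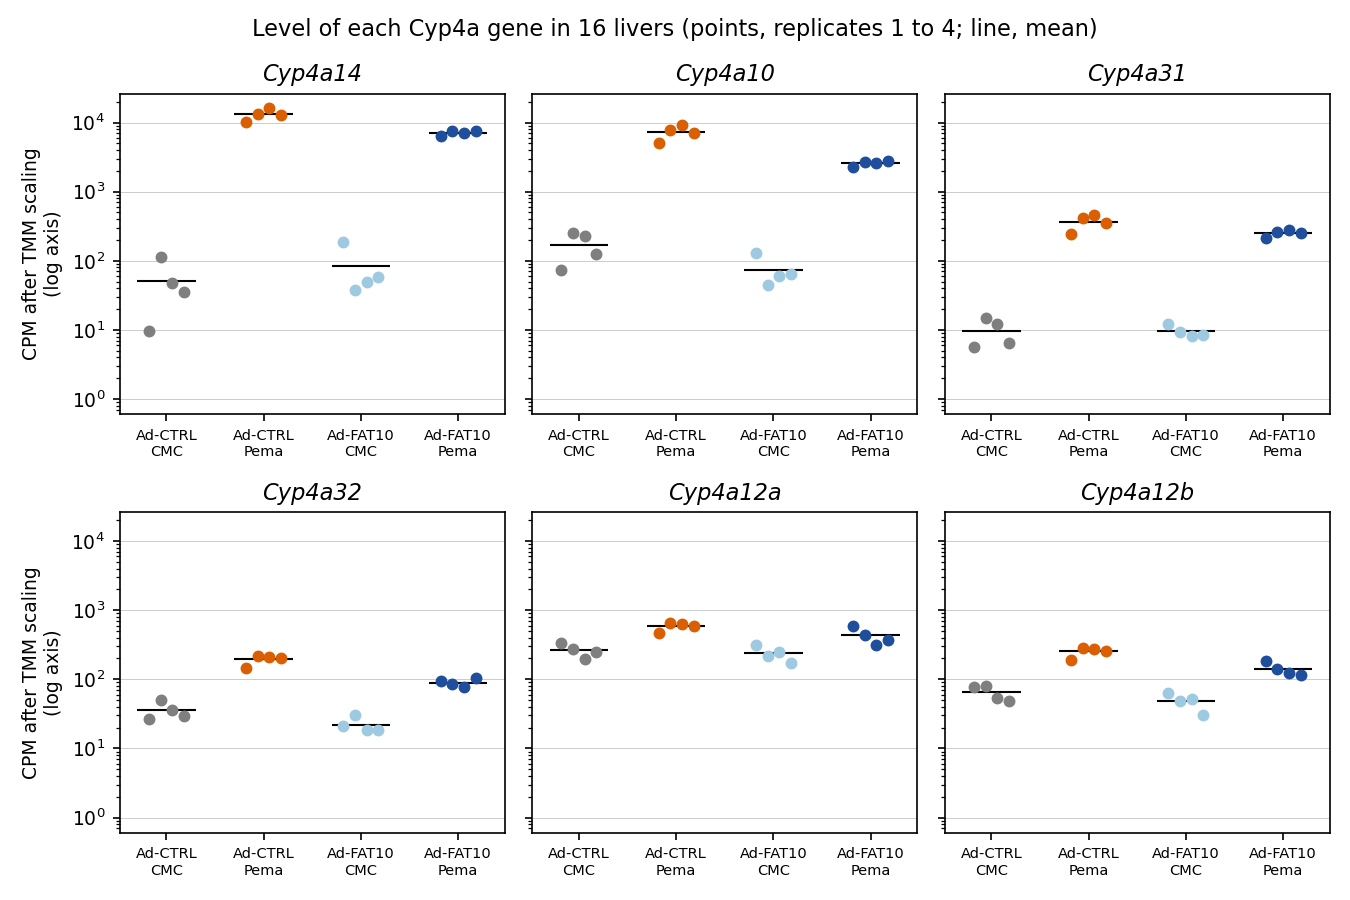
Level of each Cyp4a gene (CPM after TMM scaling, log axis) in the 16 livers, by group; points are replicates 1 to 4 from left to right and lines are means. Cyp4a14 and Cyp4a10 lie at or below 255 CPM in all CMC livers and at or above 2250.5 CPM in all Pema livers, while Cyp4a12a and Cyp4a12b move least.

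Cyp4a14, the P450 most distant from the others in sequence, stood at 9.74, 112, 48.4 and 35.3 CPM in Ad-CTRL CMC replicates 1 to 4 and at 10231, 13247, 16202 and 12915 CPM in the Ad-CTRL Pema replicates. The CMC livers differed among themselves by more than a factor of 10, with replicate 1 lowest and replicate 2 highest, and the Pema livers were all far above them. The log2 change was 8.00 ± 0.69 (SE, 255-fold, edgeR adjusted p = 9.08e-08), the 5th highest of 14770. It was 8.72 without Ad-CTRL CMC replicate 2 and 7.65 without replicate 1. By mean CPM, Cyp4a14 went from rank 2775 to rank 8 among the genes tested.

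Cyp4a10, the other well-known drug-inducible member, stood at 74.1, 255, 230.4 and 127 CPM in Ad-CTRL CMC and at 5117, 7751, 9254 and 7082 CPM in Ad-CTRL Pema. The CMC replicates 1 and 4 were low and 2 and 3 high, and the groups were far apart. Cyp4a10 rose by a log2 change of 5.41 ± 0.40 (SE, 42.6-fold, edgeR adjusted p = 1.24e-08). Cyp4a31, a close copy of Cyp4a10 found beside it, stood at 5.63, 15.1, 12.0 and 6.48 CPM in CMC and at 244, 414, 462 and 349 CPM in Pema. It followed Cyp4a10 in which CMC livers were low and which were high, and it rose by 5.22 ± 0.28 (37.2-fold, adjusted p = 2.63e-10). The changes of Cyp4a10 and Cyp4a31 ranked 18th and 21st of 14770.

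Cyp4a32, although nearer to Cyp4a10 in coding sequence than Cyp4a31 is, rose less. It stood at 26.2, 49.8, 36.1 and 29.8 CPM in Ad-CTRL CMC and at 145, 219, 212 and 205 CPM in Ad-CTRL Pema. The groups did not overlap, and the change was 2.45 ± 0.20 (SE, 5.48-fold, edgeR adjusted p = 3.96e-08). Its 95% interval of 2.04 to 2.87 lay below those of Cyp4a10 (4.58 to 6.25) and Cyp4a31 (4.63 to 5.81). In RefSeq's window of 300 bases around its start (GRCm38.p6), which among the members was given for Cyp4a32 alone, there was no AGGTCA on either strand, the half-site that PPARα and RXR bind, while 16.3% of 32851 such windows held 1. A direct repeat of it with 1 base between (DR1) was matched with 3 mismatches at best, while 3.86% of the windows held it with at most 2. No match means only that these letters are not in this window.

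Cyp4a12a, the male-biased arachidonic acid hydroxylase, stood at 331, 277, 199 and 245 CPM in Ad-CTRL CMC and at 461, 659, 628 and 591 CPM in Ad-CTRL Pema. Here CMC replicate 1, the lowest for Cyp4a10, Cyp4a14, Cyp4a31 and Cyp4a32, was the highest, and the groups were apart. It rose by 1.15 ± 0.21 (SE, 2.22-fold, edgeR adjusted p = 0.000332). Cyp4a12b stood at 78.0, 80.0, 54.1 and 49.0 CPM in CMC and at 191, 286, 277 and 258 CPM in Pema, and it rose by 1.95 ± 0.22 (3.87-fold, adjusted p = 1.9e-06). The smallest responses of the cluster were thus in its 2 most similar genes, whose counts are also the hardest to tell apart.

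In Ad-FAT10 livers pemafibrate again raised all 6 genes, in the same order of size. All 6 were called higher, against 12.9% of genes tested, and 5 of 6 had groups that did not overlap, against 13.1%. The exception was Cyp4a12a. Their median log2 change was 3.37, and that of all genes was -0.01. Of the 10 hepatocyte markers 6 were called lower and 0 higher, against 1852 of all 14770 genes called lower. All 4 neutrophil markers tested were called lower as well, with summed levels of 35.1 to 87.7 CPM under CMC and 16.1 to 23.0 CPM under pemafibrate, and the part of this in the Cyp4a responses was not tested.

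Cyp4a14 stood at 189, 38.0, 49.9 and 58.3 CPM in Ad-FAT10 CMC and at 6364, 7657, 7176 and 7476 CPM in Ad-FAT10 Pema. Replicate 1 of the CMC group was more than 3 times as high as the next, and the Pema livers were close together. The change was 6.42 ± 0.64 (SE, 85.7-fold, edgeR adjusted p = 9.05e-07), and 7.20 without Ad-FAT10 CMC replicate 1. Cyp4a10 stood at 129, 45.3, 59.97 and 64.5 CPM in CMC and at 2250.5, 2722, 2611 and 2766 CPM in Pema, and it rose by 5.11 ± 0.39 (34.6-fold, adjusted p = 3.12e-08). Replicate 1 was again the highest of its CMC group. Cyp4a31 stood at 12.0, 9.29, 8.20 and 8.52 CPM in CMC and at 214, 257, 277 and 252 CPM in Pema, a rise of 4.72 ± 0.28 (26.4-fold, adjusted p = 1.26e-09).

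Cyp4a32 stood at 21.4, 30.2, 18.4 and 18.5 CPM in Ad-FAT10 CMC and at 93.5, 85.8, 76.9 and 103 CPM in Ad-FAT10 Pema, without overlap, and rose by 2.02 ± 0.20 (SE, 4.06-fold, edgeR adjusted p = 6.08e-07). Cyp4a12b stood at 64.0, 49.2, 51.8 and 30.1 CPM in CMC and at 182, 139, 123 and 116 CPM in Pema, and rose by 1.52 ± 0.21 (2.87-fold, adjusted p = 4.52e-05). Cyp4a12a stood at 314, 214, 246 and 171 CPM in CMC and at 597, 444, 313 and 374 CPM in Pema. In this gene the third Pema liver lay just under the first CMC liver, and the rise of 0.87 ± 0.21 (1.83-fold, adjusted p = 0.00426) was the smallest of the 6.

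With either virus, pemafibrate changed which genes make up the Cyp4a pool. The summed level of the 6 was 596 ± 133 CPM in Ad-CTRL CMC and 21850 ± 4375 CPM in Ad-CTRL Pema, 36.6-fold higher (SD, n = 4). In Ad-FAT10 it was 475 ± 173 CPM under CMC and 10667 ± 713 CPM under Pema, 22.4-fold higher. As a share of all counts the 6 genes went from 0.0549% ± 0.0127 to 1.88% ± 0.315 with Ad-CTRL and from 0.0532% ± 0.0184 to 1.19% ± 0.0969 with Ad-FAT10.

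**Figure D2:**
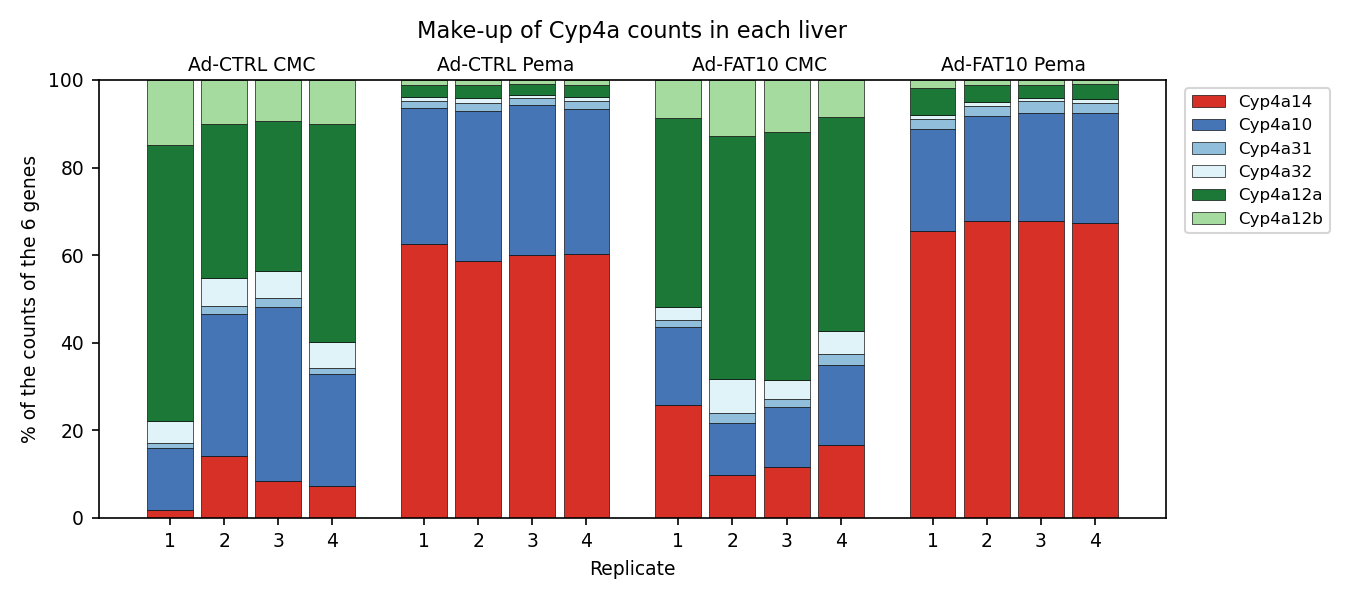
Share of each gene in the summed counts of the 6 Cyp4a genes (percent), 1 bar per liver, by group and replicate. Cyp4a12a takes 34.3% to 63.1% of the bar in CMC livers and 2.32% to 6.15% in Pema livers, where Cyp4a14 and Cyp4a10 take most of it.

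Within the pool, Cyp4a12a held 45.6% ± 13.7 of the counts in Ad-CTRL CMC and 2.704% ± 0.262 in Ad-CTRL Pema, although its own level rose (SD, n = 4). Cyp4a14 went the other way, from 7.90% ± 5.07 to 60.3% ± 1.56, and Cyp4a10 held 28.0% ± 10.9 and 33.2% ± 1.44. In Ad-FAT10 livers Cyp4a12a went from 51.0% ± 6.31 to 4.10% ± 1.42 and Cyp4a14 from 15.95% ± 7.20 to 67.2% ± 1.05. The shares of Cyp4a14 and Cyp4a10 varied less among Pema livers than among CMC livers, while that of Cyp4a12a in Ad-FAT10 Pema ran from 2.96% to 6.15%, with replicate 1 highest.

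Levels of different genes were compared per kilobase of annotated exon. In Ad-CTRL CMC Cyp4a12a was first, at 109 ± 22.9 CPM per kb, followed by Cyp4a10 at 81.3 ± 40.5 (SD, n = 4), and their ranges overlapped. Cyp4a12b (27.3 ± 6.69), Cyp4a32 (23.1 ± 6.77) and Cyp4a14 (19.7 ± 16.7) overlapped in range too, and Cyp4a31 was last at 3.90 ± 1.80. In Ad-FAT10 CMC Cyp4a12a was again first at 97.6 ± 24.8, above Cyp4a10 (35.5 ± 17.7) without overlap, and Cyp4a31 last at 3.78 ± 0.683. In Ad-CTRL Pema Cyp4a14 came first at 5055 ± 939 CPM per kb and Cyp4a10 came next at 3462 ± 814, with ranges that overlapped. Far below were Cyp4a12a (241 ± 36.1), then Cyp4a31 (146 ± 37.6), Cyp4a32 (127 ± 22.2) and Cyp4a12b (106 ± 18.0), the last 3 within their spread of each other. In Ad-FAT10 Pema the order was the same, and Cyp4a14 at 2756 ± 220 and Cyp4a10 at 1227 ± 111 did not overlap. The share of untranslated sequence in the annotation differs between the genes and is lowest for Cyp4a32. Per kilobase of coding sequence some neighbours changed places, Cyp4a32 and Cyp4a12b in the Pema groups, Cyp4a32 and Cyp4a14 in Ad-CTRL CMC, and Cyp4a10 and Cyp4a14 in Ad-FAT10 CMC.

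The next question was which members differed with the virus at a given treatment. Vector load was not measured, and it cannot be told apart from FAT10 itself. Under CMC, Cyp4a10 and Cyp4a32 were lower in Ad-FAT10 livers and the other 4 genes did not pass the test. Under pemafibrate all 6 fitted values were lower, and Cyp4a10, Cyp4a32 and Cyp4a12b passed. The plot of log2 changes sets these differences beside the drug response.

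**Figure D3:**
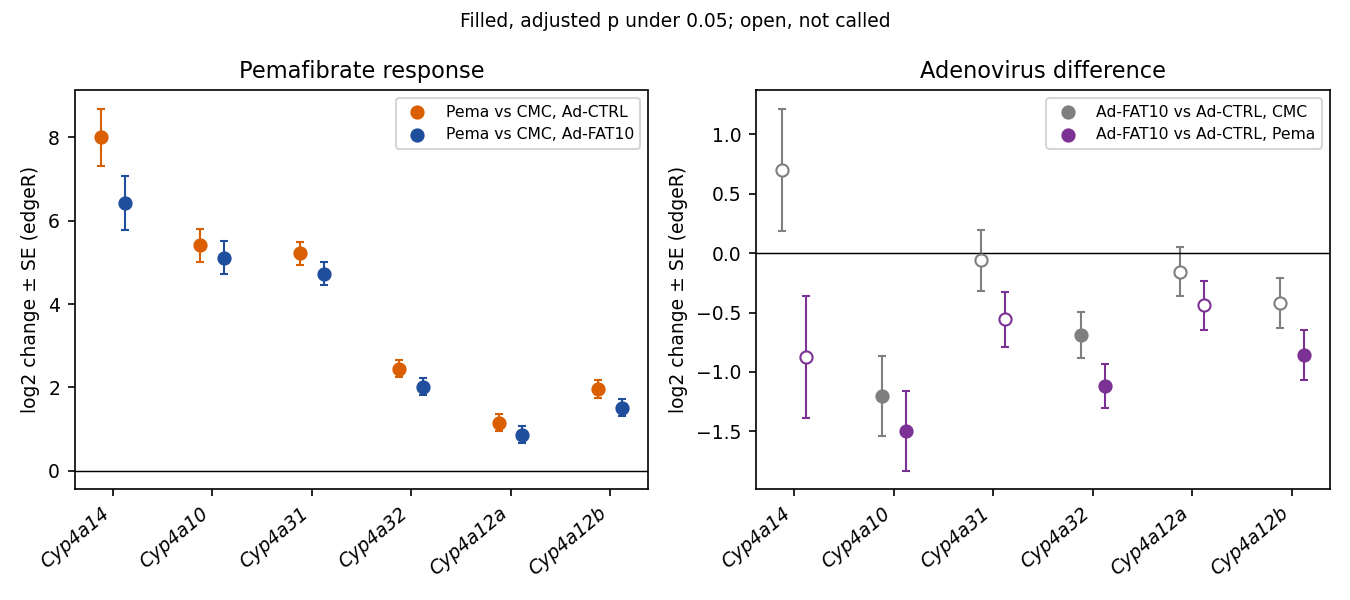
Log2 change ± SE (edgeR) of each Cyp4a gene, for pemafibrate against CMC with each virus (left) and for Ad-FAT10 against Ad-CTRL with each treatment (right); filled points have an adjusted p under 0.05. All drug responses are filled and run from 0.87 to 8.00, while the virus differences run from -1.50 to 0.70 and 5 of 12 are filled.

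Under CMC, 2 of 6 members were called lower, against 20.2% of all genes tested, and for 0 of 6 did the groups lie apart, against 17.8% of genes lower without overlap. Their median log2 difference was -0.29, and that of all genes was -0.01. Cyp4a10 had a log2 difference of -1.199 ± 0.34 (SE, 2.30-fold lower, edgeR adjusted p = 0.00822), with 3 of 4 Ad-FAT10 livers below the lowest Ad-CTRL liver. Cyp4a32 differed by -0.69 ± 0.19 (adjusted p = 0.00864), a call that was lost when libraries were scaled by their totals alone (-0.41, adjusted p = 0.0631). Cyp4a14 had a fitted difference of 0.70 ± 0.52 that did not pass (adjusted p = 0.289) and that rested on single livers, since it was -0.08 without Ad-FAT10 CMC replicate 1 and 1.42 (adjusted p = 0.0335) without Ad-CTRL CMC replicate 2. Cyp4a12b was at -0.42 (adjusted p = 0.116, and -0.58 with adjusted p = 0.0440 without Ad-FAT10 CMC replicate 1). Cyp4a12a and Cyp4a31 were at -0.15 and -0.06 (adjusted p = 0.565 and 0.866), and with total counts at 0.13 and 0.22.

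Under pemafibrate, 3 of 6 members were called lower, against 20.5% of all genes tested, and 4 of 6 had groups that did not overlap, against 18.0% of genes lower. Their median log2 difference was -0.87, and that of all genes was -0.02. Cyp4a10 in Ad-FAT10 Pema, at 2587 ± 234 CPM, stood below Ad-CTRL Pema at 7301 ± 1716 CPM (SD, n = 4), a difference of -1.50 ± 0.34 (SE, 2.82-fold lower, edgeR adjusted p = 0.0018). Cyp4a32 differed by -1.12 ± 0.19 (2.17-fold lower, adjusted p = 0.000177) and Cyp4a12b by -0.86 ± 0.21 (1.81-fold lower, adjusted p = 0.0033). With total counts these 3 were still called, at -1.12, -0.75 and -0.49.

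Cyp4a14 under pemafibrate was at 7168 ± 572 CPM in Ad-FAT10 and 13149 ± 2442 CPM in Ad-CTRL (SD, n = 4), and each Ad-FAT10 liver lay below each Ad-CTRL liver. Its difference of -0.88 ± 0.51 was not called in the fit of all 4 groups (SE, edgeR adjusted p = 0.181), to which the widely spread CMC livers contributed. In a fit of the 2 Pema groups alone it was -0.86 ± 0.16 (adjusted p = 0.00198). Cyp4a31 was at -0.55 ± 0.23 (adjusted p = 0.0629), and it was called in the fit of 2 groups (adjusted p = 0.0350), by DESeq2 (adjusted p = 0.0480), with no filter on low counts (adjusted p = 0.0166) and without Ad-CTRL CMC replicate 1 or 2 or Ad-CTRL Pema replicate 1 (adjusted p = 0.0397, 0.0370 and 0.0225). These were the only 3 of 16 edgeR fits without 1 library that called Cyp4a31, and the highest adjusted p among the 16 was 0.186. Cyp4a12a was at -0.44 ± 0.20 (adjusted p = 0.0941), and at -0.64 without Ad-FAT10 Pema replicate 1 (adjusted p = 0.0153).

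Markers of hepatocytes were lower in the same livers. The summed level of 10 markers was 83646 to 112623 CPM in Ad-CTRL CMC and 60241 to 72201 CPM in Ad-FAT10 CMC, and 5 of the 10 were called lower, Alb, Apoa1, Ttr, Serpina1c and Ahsg. Under pemafibrate the ranges were 69936 to 97571 CPM and 43384 to 64802 CPM, with 8 of 10 called lower. Over all genes tested, 20.2% were called lower under CMC and 20.5% under pemafibrate. Neutrophil markers rose in 4 of 4 tested in both comparisons, with summed levels of 7.62 to 14.8 CPM in Ad-CTRL CMC and 35.1 to 87.7 CPM in Ad-FAT10 CMC, and T and NK cell markers rose in 4 of 5. The part of these shifts in the Cyp4a differences was not tested.

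Ratios between members of the same liver do not depend on library scaling. They are described by their values and by whether groups overlap, with no test. Cyp4a14 per Cyp4a10 was 0.131, 0.440, 0.210 and 0.279 in Ad-CTRL CMC and 1.46, 0.840, 0.833 and 0.904 in Ad-FAT10 CMC. Under pemafibrate it was 2.00, 1.71, 1.75 and 1.82 in Ad-CTRL and 2.83, 2.81, 2.75 and 2.703 in Ad-FAT10. None of the 4 groups overlapped another, and the order from low to high was Ad-CTRL CMC, Ad-FAT10 CMC, Ad-CTRL Pema and Ad-FAT10 Pema. The mean ratio was 3.81-fold higher with Ad-FAT10 under CMC and 1.52-fold higher under pemafibrate. Cyp4a14 shared 0% of its windows of 100 bases with any other Cyp4a gene, but Cyp4a10 shared 12.7% with Cyp4a31 and Cyp4a32. How far shared reads of Cyp4a10 moved this ratio was not tested.

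**Figure D4:**
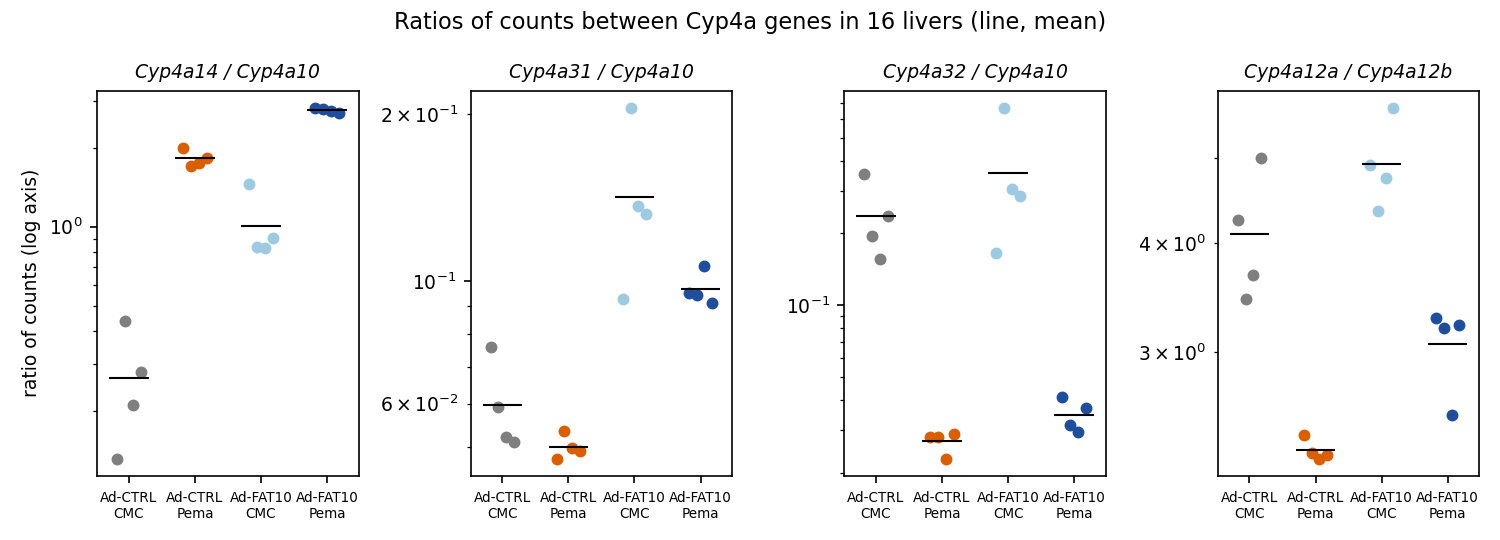
Ratio of counts between pairs of Cyp4a genes in each liver (log axes, each panel with its own range), by group; lines are means. Cyp4a14 per Cyp4a10 separates all 4 groups, and Cyp4a31 per Cyp4a10 separates the viruses and not the treatments.

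Cyp4a31 per Cyp4a10 averaged 0.0596 ± 0.0115 in Ad-CTRL CMC and 0.0501 ± 0.00242 with the drug, and 0.142 ± 0.0468 in Ad-FAT10 CMC and 0.0968 ± 0.00654 with the drug (SD, n = 4). The viruses did not overlap with either treatment, and the treatments overlapped with either virus. Cyp4a32 per Cyp4a10 averaged 0.235 ± 0.0851 in Ad-CTRL CMC and 0.0271 ± 0.00281 with the drug, and 0.356 ± 0.216 in Ad-FAT10 CMC and 0.0349 ± 0.0055 with the drug, the treatments lying apart for both viruses. Cyp4a12a per Cyp4a12b averaged 4.09 ± 0.689 under CMC and 2.32 ± 0.0641 under pemafibrate in Ad-CTRL, and 4.92 ± 0.567 and 3.06 ± 0.349 in Ad-FAT10, again with the treatments apart. For both of these ratios the viruses overlapped under CMC and lay apart under pemafibrate, where the means were 1.29-fold and 1.32-fold higher with Ad-FAT10. In these last 3 pairs reads can be shared between the copies, and how far that moved the ratios was not tested.

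The interaction asks if the drug response itself differed between the viruses. It was called for 0 of 6 members by edgeR, against 0.156% of all genes tested (23 genes), and for 0 by DESeq2. At an unadjusted p under 0.05 there was 1, Cyp4a14. Its response in Ad-FAT10 minus that in Ad-CTRL was -1.58 ± 0.73 (log2, SE, 95% interval -3.10 to -0.05, edgeR adjusted p = 0.453), and the difference was -0.80 without Ad-FAT10 CMC replicate 1 and -2.30 without Ad-CTRL CMC replicate 2. For Cyp4a10 the interval was -1.28 to 0.68, for Cyp4a31 -1.22 to 0.23, for Cyp4a32 -0.997 to 0.13, for Cyp4a12b -1.06 to 0.19 and for Cyp4a12a -0.89 to 0.32. These 5 intervals hold 0 and all reach -0.89 or lower, so the data do not show that the responses were alike.

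The spread between livers of a group was itself uneven. In Ad-CTRL CMC the SD of log2 CPM was 1.46 for Cyp4a14, larger than that of 99.9% of genes tested, and 0.83 for Cyp4a10, against a median of 0.19 over all genes. In Ad-FAT10 CMC Cyp4a14 had an SD of 1.02, larger than 99.5% of genes. Under pemafibrate the SD of Cyp4a14 was 0.27 in Ad-CTRL and 0.12 in Ad-FAT10, where 26.5% of genes had a smaller one. Cyp4a12a, by contrast, had similar SDs in all 4 groups, from 0.23 to 0.40. Ad-CTRL CMC replicate 1 and Ad-FAT10 CMC replicate 1, which were lowest and highest for Cyp4a14 in their groups, were the 2 libraries with the fewest counts (18663498 and 19859255), and the part of depth in this was not tested.

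The enzymes before and after the hydroxylation step were taken from lists of the pathway. Por, the reductase that hands electrons to microsomal P450 enzymes, rose with pemafibrate by 0.90 ± 0.13 in Ad-CTRL and 0.88 ± 0.13 in Ad-FAT10 (SE, edgeR adjusted p = 5.06e-05 and 9.97e-05), and Cyb5a, cytochrome b5, was at -0.09 and 0.02 (adjusted p = 0.62 and 0.939). Of the 4 electron donors 2 rose and 0 fell in Ad-CTRL, and 1 rose and 1 fell in Ad-FAT10, the latter being Cyb5r3, cytochrome b5 reductase (-0.52, adjusted p = 0.0191). Of 5 alcohol and aldehyde dehydrogenases, which take the hydroxyl group to an acid, 2 rose and 1 fell in Ad-CTRL and 1 rose and 0 fell in Ad-FAT10, and Aldh3a2, the fatty aldehyde dehydrogenase, rose most, by 2.19 ± 0.18 and 2.77 ± 0.18 (adjusted p = 5.15e-08 and 5.4e-09). The median of the 5 was -0.28 in Ad-CTRL, where Adh4, Adh7 and Adh5 were at -0.50, -0.29 and -0.28, and of these Adh4 passed the test.

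Genes for the breakdown of dicarboxylic acids rose as a group with the drug. Of 18 tested, 14 rose and 1 fell in Ad-CTRL (median 1.64) and 15 rose and 1 fell in Ad-FAT10 (median 1.63). Over all genes tested, 16.2% were called higher in Ad-CTRL and 12.9% in Ad-FAT10. Ehhadh, the peroxisomal bifunctional enzyme, rose by 6.20 and 5.36. The peroxisomal thiolase Acaa1b rose by 3.37 and 3.30, the succinyl-CoA thioesterase Acot4 by 2.81 and 2.82, and the carnitine acetyltransferase Crat by 3.20 and 2.60. With Ad-FAT10, 12 of the 18 were lower and 0 higher under each treatment (medians -0.56 and -0.66), among them Acot4 at -1.14 and -1.12 (edgeR adjusted p = 0.000145 and 0.000149). All 5 dehydrogenases of the middle step were lower with Ad-FAT10 under CMC and 4 of 5 under pemafibrate. Over all genes tested, 20.2% were called lower with Ad-FAT10 under CMC and 20.5% under pemafibrate. The hepatocyte markers given above were lower in the same livers.

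**Figure D5:**
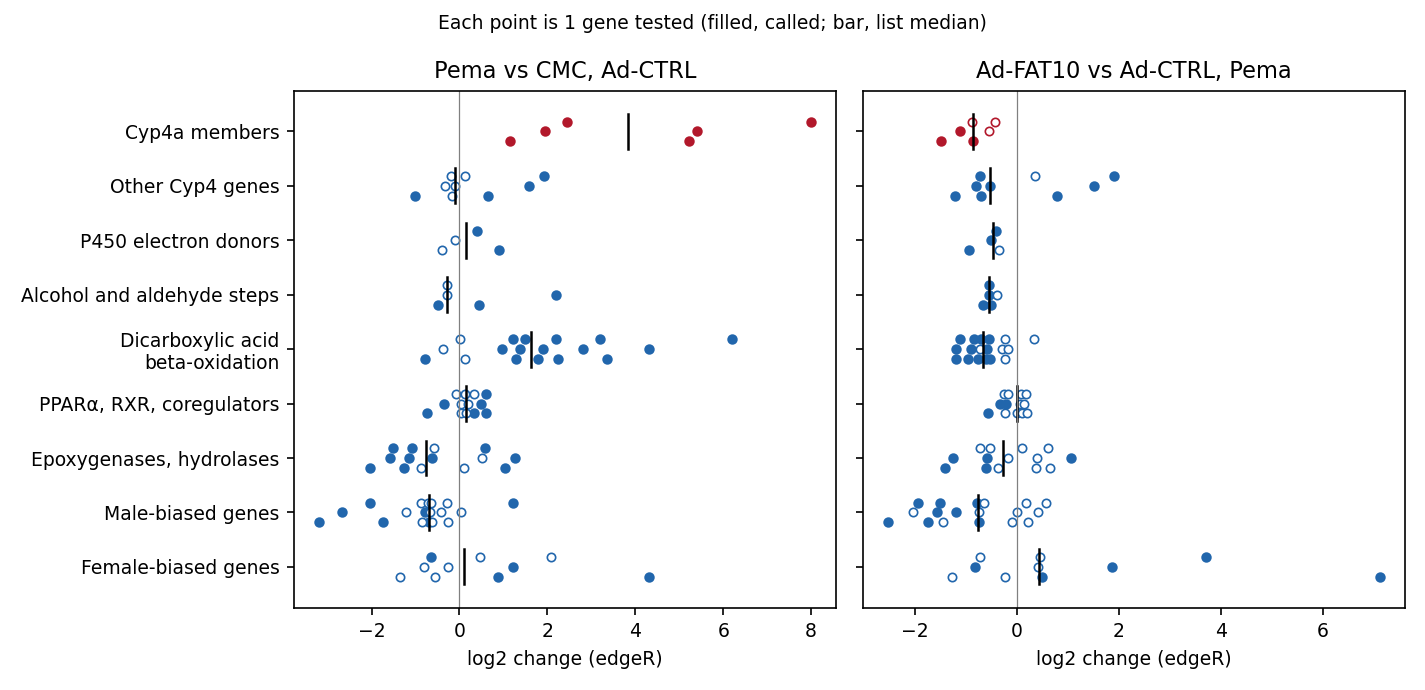
Log2 changes (edgeR) of the Cyp4a genes and of the genes tested in 8 related lists, for pemafibrate in Ad-CTRL livers (left) and Ad-FAT10 against Ad-CTRL under pemafibrate (right); filled points were called and bars are medians. With the drug the Cyp4a genes have a median of 3.84 and the dicarboxylic acid list 1.64, and the other 7 lists have medians between -0.75 and 0.16.

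Other Cyp4 genes moved in both directions. Of 9 other Cyp4 genes tested, 3 rose and 1 fell with pemafibrate under each virus, with medians of -0.10 and -0.03. For comparison, 2389 of all 14770 genes tested rose and 2134 fell in Ad-CTRL, and 1898 rose and 1852 fell in Ad-FAT10. Cyp4f17 rose by 1.59 and 1.14, Cyp4f15 by 0.66 and 0.74, and Cyp4f39, at 0.237 CPM in Ad-CTRL CMC, by 1.92 and 1.19, while Cyp4f14, the mouse leukotriene B4 hydroxylase, fell by 1.00 and 0.96. Of 14 genes tested from a list of Cyp2c, Cyp2j and Cyp2u P450 genes and epoxide hydrolases, 3 rose and 7 fell in Ad-CTRL (median -0.75). In Ad-FAT10 3 rose and 6 fell (median -0.40). Among all 14770 genes tested, 2134 fell in Ad-CTRL and 1852 in Ad-FAT10. The P450 gene Cyp2c70 was at -2.03 and Ephx2, the soluble epoxide hydrolase, at 1.26 in Ad-CTRL.

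Since Cyp4a12a and Cyp4a12b are male-biased, 18 other male-biased liver genes were set beside them. With pemafibrate 1 rose and 6 fell in Ad-CTRL (median -0.70), and 1 rose and 11 fell in Ad-FAT10 (median -0.97). Among all 14770 genes tested, 2389 rose and 2134 fell in Ad-CTRL, and 1898 rose and 1852 fell in Ad-FAT10. Hsd3b5, a male-specific steroid dehydrogenase, fell by 3.20 ± 0.61 and 3.29 ± 0.63 (SE, edgeR adjusted p = 0.000549 and 0.000776), and Elovl3, a fatty acid elongase, rose by 1.22 in Ad-CTRL. Both Cyp4a12 genes rose in the same livers, as given above. Of 18 female-biased genes, 10 passed the filter on low counts. Of these 3 rose and 1 fell in Ad-CTRL (median 0.10), and 5 rose and 0 fell in Ad-FAT10 (median 1.25). Among them Acot3, an acyl-CoA thioesterase, and Abcd2 are also on the dicarboxylic acid list, and Acot3 rose by 4.31 and 5.30. Cyp2b9, a female-biased P450 at most 5.01 CPM in any liver, rose by 3.52 in Ad-FAT10. Cyp2b9 and A1bg averaged 3.16 and 1.23 CPM in Ad-FAT10 Pema, and at most 0.351 and 0.335 CPM in the other groups. They may have passed the filter through Ad-FAT10 Pema alone, so their calls and the median of 1.25 may in part be set by the filter.

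Ppara, the gene of the receptor, rose with pemafibrate in Ad-CTRL by 0.60 ± 0.16 (SE, edgeR adjusted p = 0.00791) and was at 0.27 in Ad-FAT10 (adjusted p = 0.248), and the difference between these responses did not pass (adjusted p = 0.634). Of 13 genes for PPARα, its RXR partners and coregulators, 4 rose and 2 fell with the drug in Ad-CTRL (median 0.16). There Rxrg was at 0.59 and Ppargc1a, a coactivator, at -0.74. In Ad-FAT10 2 rose and 3 fell (median -0.07). For comparison, 2389 of all 14770 genes tested rose and 2134 fell in Ad-CTRL, and 1898 rose and 1852 fell in Ad-FAT10. With Ad-FAT10 under CMC 2 of 13 were higher, the coactivator genes Med1 (0.46) and Ncoa1 (0.34), and 0 lower (median 0.13). In this comparison 3316 of all 14770 genes tested were called higher, a larger share than 2 of 13, and 20.2% were called lower. With Ad-FAT10 under pemafibrate 0 were higher and 3 of 13 lower (median 0.01), against 20.5% of all genes tested, Ppara at -0.56 ± 0.16, Rxra at -0.32 ± 0.12 and Rxrb at -0.21 ± 0.07 (SE, edgeR adjusted p = 0.00912, 0.0449 and 0.0226). None of the 13 had a called interaction.

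The genes with the most similar profiles were found by the root mean square difference of log2 CPM, each profile centred on its mean, over 16 libraries and 11354 genes. For Cyp4a14 the nearest were Gm15441 (0.62) and Pdk4 (0.83), for Cyp4a10 Acot1 (0.47) and Acot3 (0.57), and for Cyp4a31 Adamts15 (0.51) and Ehhadh (0.53). Cyp4a32 was nearest to Acsl1 (0.32), and Cyp4a12b to Abcd3 (0.28) and Fitm2 (0.29). Cyp4a12a was nearest to 1190002N15Rik (0.22) and Hip1r (0.22). Among the members, the closest pairs were Cyp4a12b with Cyp4a32 (0.43) and Cyp4a12a with Cyp4a12b (0.43), then Cyp4a10 with Cyp4a31 (0.62), and the most distant were Cyp4a12a and Cyp4a14 (3.41). This measure is not scaled for the size of a change, so unequal drug responses alone set genes apart. By it Cyp4a32 lay 1.63 from Cyp4a10, its close copy in coding sequence, whose drug response was larger.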

How the data were processed

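Poly(A) RNA of 16 livers was sequenced on DNBSEQ with dUTP strand marking, per the labels' protocols. For each mouse the authors deposited a table of whole-number counts by Ensembl identifier, not normalized. Per the submitters' processing notes, the build was GRCm39 and the tools included DESeq2 (1.36.0 and 2.11.40.6) and the aligner STAR (2.7.6). The sources used here name no counting program, annotation or strand setting. Groups and replicate numbers came from the sample titles, and the labels give no batch.

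Symbols were matched on the Ensembl identifier to GENCODE M21 (52083 of 55416 identifiers, 94.0%), and coding sequences came from its transcripts. Identity was computed on coding sequences, since no protein table was used here. Ratios between members have no test. The members, and all gene lists, were chosen with earlier results of these data known. Named genes are the 6 members, up to 4 genes per list and comparison with the smallest p, and for each member the 5 genes of most similar profile, with a prior count of 2 and a mean log2 CPM of at least 1. The text prints part of these.

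Counts were fitted in R 4.3.3 with edgeR 4.0.16 (filterByExpr, TMM, quasi-likelihood test, 12 residual degrees of freedom) as 4 groups, with Benjamini-Hochberg adjustment over 14770 genes and calls under 0.05. Unless said otherwise an adjusted p is from this test, in which a difference between groups is judged against the spread between mice. SEs were derived from the test statistic. CPM are TMM-scaled, and 3 counts, the limit that a count of 0 allows, are 0.089 to 0.176 CPM (counting error only). None of the 24 pairs of libraries within a group agreed within sampling noise. The fit was also run on simulated counts, whose outcome is not reported here. Alternatives were other scalings, no filter, DESeq2 1.42.0, 2-group fits, a replicate block, leaving out each library, and summing close copies. Genes neighbouring the cluster were not analysed here.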

Additional observations from a re-analysis of the deposited data

Results flagged for a closer look

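Among 24 sets of 4 livers (6 genes in 4 groups), 1 held a liver far from the other 3. Cyp4a14 in Ad-FAT10 CMC replicate 1 was at 188.5 CPM and the next highest liver at 58.3 CPM, a gap of 0.865 of the whole range, above Dixon's critical value for 4 samples. Chance gives such a gap in about 1 of 20 sets. The same liver was also the highest of its group for Cyp4a10, Cyp4a31, Cyp4a12a and Cyp4a12b. Without it the Ad-FAT10 difference of Cyp4a14 under CMC was -0.08, and its drug response in Ad-FAT10 livers was 7.20 on the log2 scale.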

How the results depend on the processing

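All 6 drug responses kept their direction and call with each virus under every alternative run in which the gene had its own row. With libraries scaled by total counts alone, the median log2 difference of all genes between the viruses rose by 0.29 under CMC and 0.36 under pemafibrate, and the share of calls that were higher went from 52.7% to 85.7% and from 50.9% to 89.7%. The share of calls higher with pemafibrate in Ad-CTRL went from 52.8% to 39.5%. Members called with Ad-FAT10 under CMC then numbered 1, and Cyp4a12a and Cyp4a31 changed sign, to 0.13 and 0.22. With only the 2 groups in the fit, 5 members were called with Ad-FAT10 under pemafibrate. Genes with a called interaction numbered 93 with no filter, 120 by DESeq2 and 11 to 36 when a library was left out (36 without Ad-CTRL Pema replicate 1, 11 without replicate 3 or 4 of that group).

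For Ad-FAT10 under CMC, Cyp4a31 ranged from -0.245 to 0.224 when a library was left out, and changed sign without Ad-CTRL CMC replicate 2 (0.224) or 3 (0.051) or Ad-FAT10 CMC replicate 3 (0.0054). Cyp4a14 ranged from -0.078 without Ad-FAT10 CMC replicate 1 to 1.42 without Ad-CTRL CMC replicate 2. The interaction of Cyp4a10 was 0.10 without Ad-FAT10 CMC replicate 1. With Cyp4a10, Cyp4a31 and Cyp4a32 summed, their Ad-FAT10 differences were -1.03 and -1.43 (edgeR adjusted p = 0.00801 and 0.000791), and with the Cyp4a12 pair summed the difference under pemafibrate was -0.55 (adjusted p = 0.0365). Beyond what such construction sets (fewer libraries or genes, another scale), the cause was not tested.

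Of 24 correlations of same-numbered livers from different groups, 3 were over 0.1, and they ran from -0.17 to 0.17. Livers of different number were not compared, so these values do not settle if a number marks a pair. With the replicate number as a block, Cyp4a31 was at 0.023 with Ad-FAT10 under CMC and Cyp4a12a was called under pemafibrate (-0.49, edgeR adjusted p = 0.0436). Calls for the other members did not change under the block.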
